A study of Mus musculus with 20 samples.

Results

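A set of 44 mouse genes of DNA replication and mitosis, 23 of replication and 21 of mitosis, was followed through 20 arrays of brain progenitor cell lines. The genes were listed by their roles in the cell cycle, with earlier results of these data known. A gene counted as measured when the array carried a probe set assigned to that symbol alone, and 43 of the 44 were measured, of 18193 genes in all. The exception was Ccnb1, which encodes a mitotic cyclin, so 20 mitosis genes were measured. Each of the 43 lay above background on all 20 arrays.

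Total RNA was measured on single-colour Affymetrix arrays, 1 sample per array and 5 arrays per group. All samples were mouse brain cell lines, and the groups were embryonic progenitors used as control, embryonic progenitors after transduction, which the labels mark as a genetic modification, postnatal progenitors used as control and postnatal progenitors after transformation. The labels leave the introduced sequence, the transforming agent, the strain and the brain region unnamed. They number the 5 samples of each group without stating that each was its own culture, and a p-value here therefore covers only sample-to-sample spread, part of which may be technical. The embryonic and postnatal cells differ in more than age, since any difference in origin or preparation goes with it, and transduction and transformation cannot be told apart from the age at which each was done.

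A dividing cell copies its DNA in S phase and separates the copies in mitosis. Before S phase, Cdc6 and Cdt1 load the helicase made of Mcm2 to Mcm7 onto replication origins, which is called licensing, and Gmnn (geminin) holds Cdt1 back from loading it again. At origin firing, Mcm10, Cdc45 and the GINS complex turn the loaded helicase into a moving one, and primase, polymerases and the sliding clamp Pcna follow it. In mitosis the kinases Plk1, Aurka, Aurkb and Cdk1 with its cyclins drive the spindle, and the checkpoint kinases Bub1 and Ttk delay separation until each chromosome is attached. Many replication genes are transcribed under E2F factors before S phase, whereas many mitosis genes are transcribed later through the MuvB complex with Foxm1. Glial progenitors divide, and they lower both sets of genes when they leave the cell cycle and mature.

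The start regions of the genes whose signal fell furthest in the postnatal cells are shown first, since these 2 classes are usually described by different promoter motifs. They are the 3 replication and 3 mitosis genes with the largest falls whose start region held a searched motif, and each stretch is the 250 bases before the transcription start in the RefSeq promoter table of build GRCm38.p6, read 5′ to 3′ on the gene's strand. Capitals mark matches on either strand to the motifs named after the sequences.
Rrm2: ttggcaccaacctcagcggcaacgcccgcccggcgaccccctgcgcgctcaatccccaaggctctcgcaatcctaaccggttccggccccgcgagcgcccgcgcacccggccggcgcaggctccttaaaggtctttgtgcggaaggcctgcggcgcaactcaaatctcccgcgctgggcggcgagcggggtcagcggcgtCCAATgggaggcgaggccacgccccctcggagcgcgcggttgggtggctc
Cdc6: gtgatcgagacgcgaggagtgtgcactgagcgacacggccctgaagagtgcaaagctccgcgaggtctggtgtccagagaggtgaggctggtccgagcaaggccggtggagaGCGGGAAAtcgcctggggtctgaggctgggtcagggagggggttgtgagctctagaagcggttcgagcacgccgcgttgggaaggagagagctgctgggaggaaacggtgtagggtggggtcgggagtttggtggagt
Mcm10: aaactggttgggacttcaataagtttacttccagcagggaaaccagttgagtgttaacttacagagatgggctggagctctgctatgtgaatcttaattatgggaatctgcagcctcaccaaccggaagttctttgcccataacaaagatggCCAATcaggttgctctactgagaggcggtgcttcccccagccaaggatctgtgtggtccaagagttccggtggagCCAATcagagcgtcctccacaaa
Cenpe: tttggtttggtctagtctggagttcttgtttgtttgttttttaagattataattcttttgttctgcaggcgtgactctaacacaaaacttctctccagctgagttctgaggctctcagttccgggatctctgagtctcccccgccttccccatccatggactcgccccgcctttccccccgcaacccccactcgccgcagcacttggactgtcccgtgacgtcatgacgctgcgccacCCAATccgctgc
Mki67: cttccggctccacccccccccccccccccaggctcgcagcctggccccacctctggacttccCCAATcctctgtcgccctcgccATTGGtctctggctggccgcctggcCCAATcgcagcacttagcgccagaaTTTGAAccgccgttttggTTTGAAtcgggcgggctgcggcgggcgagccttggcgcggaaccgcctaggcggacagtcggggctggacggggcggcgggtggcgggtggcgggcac
Kif11: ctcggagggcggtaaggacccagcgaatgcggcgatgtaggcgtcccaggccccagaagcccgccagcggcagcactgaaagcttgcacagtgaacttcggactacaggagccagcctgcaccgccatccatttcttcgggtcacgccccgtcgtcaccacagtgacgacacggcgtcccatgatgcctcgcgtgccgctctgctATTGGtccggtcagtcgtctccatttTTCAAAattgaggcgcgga

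Rrm2, a subunit of ribonucleotide reductase, lies at chr12:24708004-24708253 on the plus strand. Cdc6, the licensing factor, is shown at chr11:98907901-98908150 on the plus strand. Mcm10, an origin firing factor, is shown at chr2:5012792-5013041 on the minus strand. Cenpe, a kinetochore motor, is shown at chr3:135212313-135212562 on the plus strand. Mki67, which encodes the proliferation antigen Ki-67, is shown at chr7:135716380-135716629 on the minus strand. Kif11, a spindle motor, is shown at chr19:37376132-37376381 on the plus strand. The stretches of Rrm2, Mcm10, Cenpe and Kif11 end at the start of the gene in the RefSeq gene table. That of Cdc6 ends 442 bases and that of Mki67 71 bases inside the gene, because the promoter table uses another start for them.

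Of the 43 measured genes, 33 had an entry in that table, 18 of replication and 15 of mitosis, each covering 300 bases from 250 before to 50 after the start. The letters searched were TTTCCCGC, TTTCGCGC, TTTGCCGC and TTTGGCGC for E2F, CCAAT for the CCAAT box and TTTGAA for the cell cycle homology region (CHR), on both strands, and matches were allowed to overlap. An E2F motif was present in 8 of 18 replication entries (44.4%), 1 of 15 mitosis entries (6.67%) and 626 of all 27025 entries (2.32%). A CHR motif was present in 11 of 15 mitosis entries (73.3%), 3 of 18 replication entries (16.7%) and 18.1% of all entries. CCAAT letters were common in both, in 13 of 18 replication entries (72.2%) and 13 of 15 mitosis entries (86.7%), against 37.9% of all. The 11 mitosis entries with a CHR motif all held CCAAT letters as well, a pair found in 7.12% of all entries and in 2 of 18 replication entries (11.1%). In the stretches shown, Mki67 held 3 CCAAT and 2 CHR matches and Kif11 held 1 of each, whereas Cdc6 held an E2F match in its 250 bases. Those of Rrm2, Mcm10 and Cenpe held CCAAT matches only, with no E2F or CHR match. Kif11 carries its CHR match as TTCAAA on the strand shown, 19 bases before the start. A match is a description of letters, and no match says only that these letters are not in the window.

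Within groups, Pearson r across genes was 0.947 to 0.97 for pairs of arrays, and no 2 of the 20 held identical values. Of 8 listed glial progenitor markers 7 were measured, and all 7 were above background on every array of 3 groups. In embryonic transduced, 6 of the 7 were, and Sox10, a factor of the oligodendrocyte lineage, read 103 to 368. Postnatal control arrays 4 and 5 stood apart from arrays 1 to 3 of their group. All 43 genes were lower on both of these arrays than on any of arrays 1 to 3, which was so for 21.4% of all genes (3901 of 18193). Results that involve postnatal control are therefore given by array, and with and without those 2 arrays. The 2 arrays were set apart by low values of these same genes. Leaving them out therefore enlarges the postnatal falls and raises their calls by construction, so those values are a description and not separate support.

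**Figure D1:**
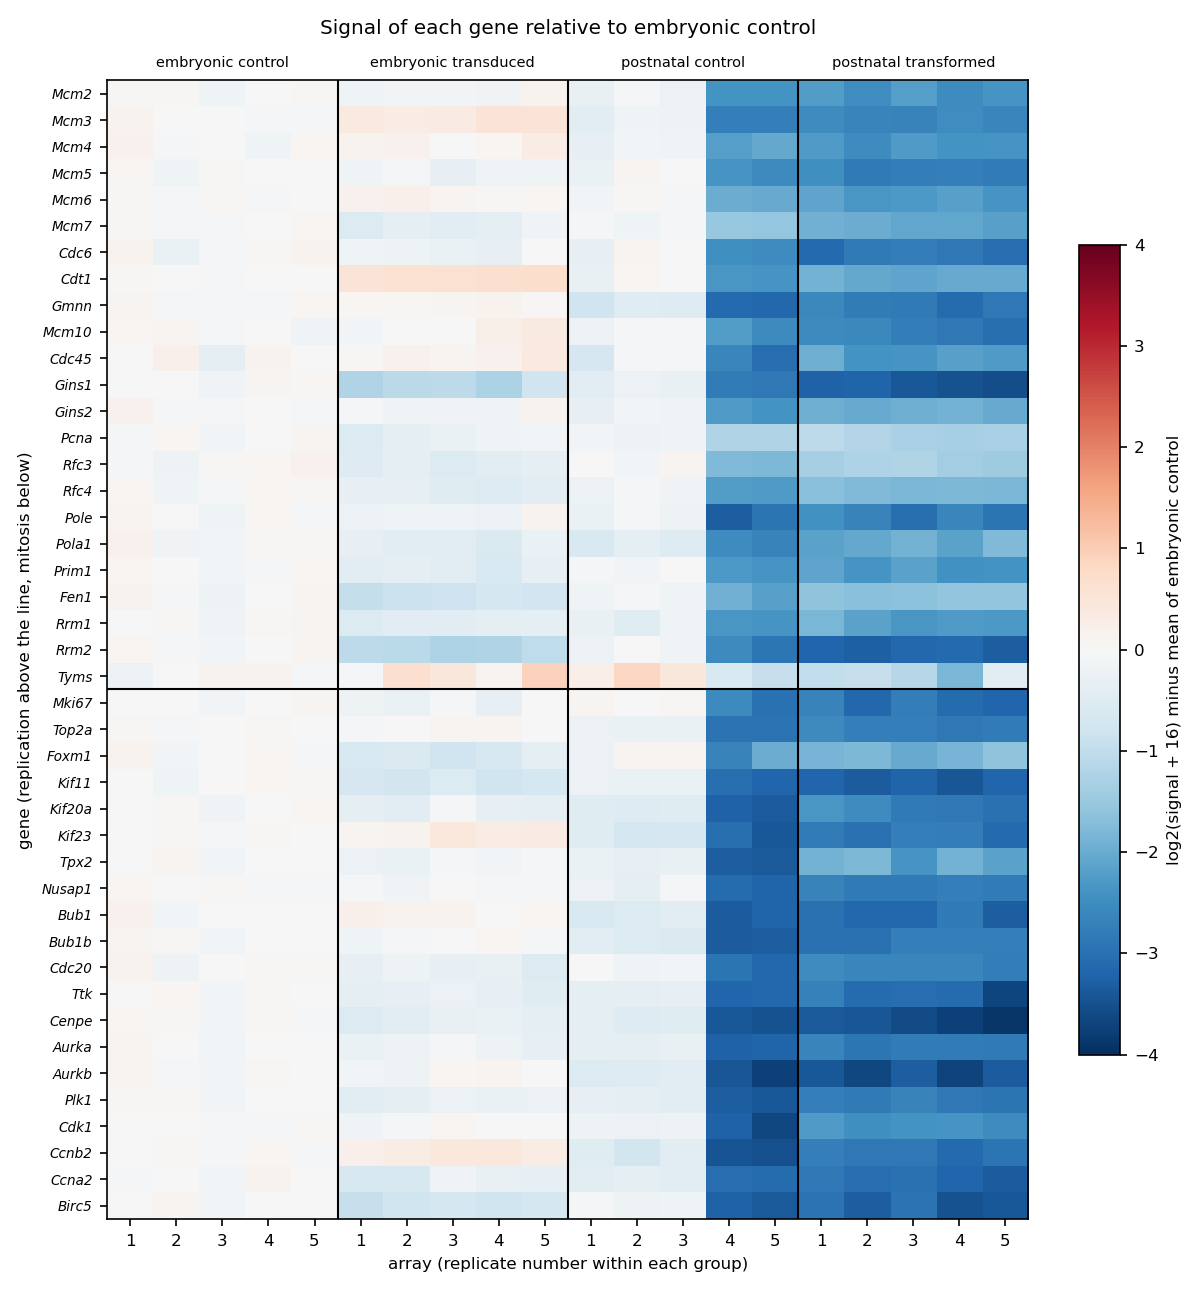
Each row is 1 of the 43 genes and each column 1 of the 20 arrays, with colour giving log2(signal + 16) minus the mean of the 5 embryonic control arrays. The embryonic arrays and postnatal control arrays 1 to 3 lie near that mean, whereas postnatal control arrays 4 and 5 and all 5 transformed arrays are lower.

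Among embryonic cells, replication and mitosis genes stayed high after transduction, with modest shifts in both directions. Signals are linear intensities, and changes are differences of log2(signal + 16), with the standard error of the limma fit over 20 arrays. A gene counts as called when its limma adjusted p is under 0.05 and it moved at least 2-fold. Of the replication genes 2 of 23 fell, Gins1 and Rrm2, and of the mitosis genes 0 of 20 were called. At an unadjusted limma p under 0.05 the mitosis count was 0 as well, where 3703 of 18193 genes were lower and 4495 higher. The errors behind this 0 carry the spread of postnatal control, so it is not read as no change. Over all genes, 5.74% were called lower and 8.61% higher in this comparison. The median change was -0.19 in replication and -0.19 in mitosis, against 0.08 over all genes.

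Rrm2 supplies the deoxynucleotides that limit S phase. It read 71661, 64238, 62567, 66271 and 71794 on embryonic control arrays 1 to 5 and 32301, 31496, 28713, 29363 and 33576 on the transduced arrays. Every transduced array was below every control array, a change of -1.11 ± 0.40 (SE, n = 5 and 5; limma adjusted p = 0.0293). Gins1, a GINS subunit that opens the helicase, read 10837, 10685, 9840, 11723 and 11549 in control and 4770, 5142, 5220, 4552 and 6226 after transduction. The groups did not overlap, and the change was -1.08 ± 0.39 (limma adjusted p = 0.0315). Fen1, which trims Okazaki fragments, read 14820, 13048, 11743, 13870 and 14684 against 7014, 7480, 7595, 8342 and 7924. Its groups did not overlap either, and its change of -0.83 ± 0.30 had a limma adjusted p of 0.0315 but stayed under 2-fold.

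Some genes went the other way. Cdt1, the licensing factor that geminin holds back, read 21134, 20590, 19932, 20259 and 20797 in control and 29507, 31592, 31051, 31885 and 33576 after transduction. Every transduced array was higher, by 0.62 ± 0.35 on the log2 scale, which did not pass (limma adjusted p = 0.182). Mcm3, a helicase subunit, had 21509, 19634, 19298, 18883 and 18484 in control and 25801, 23780, 24393, 27849 and 27853 in transduced cells. Ccnb2, a B-type cyclin, had 17921, 18324, 16928, 18773 and 17059 and 20405, 21982, 23913, 24050 and 22032. Both were higher on every transduced array, with changes of 0.41 ± 0.38 for Mcm3 and 0.33 ± 0.45 for Ccnb2 that did not pass.

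Counted by overlap, 13 of 23 replication genes had embryonic groups that did not overlap, 10 of them lower and 3 higher, the 3 being Cdt1, Mcm3 and Mcm6. For mitosis the count was 9 of 20, 7 lower and 2 higher, the 2 being Kif23, a motor of the cytokinetic midzone, and Ccnb2. Over all genes 34.8% did not overlap in this comparison. By role, 6 of 7 clamp and polymerase genes were lower on every transduced array, with a median of -0.43 over the 7. The 9 licensing genes had a median of 0.08. Among mitosis genes the largest negative change was in Birc5 (survivin, of the chromosomal passenger complex), with 26107, 28638, 24616, 26469 and 26772 in control and 14112, 15108, 16368, 15292 and 16093 in transduced cells. Its change of -0.78 ± 0.49 did not pass (limma adjusted p = 0.230), nor did that of Kif11 at -0.68 ± 0.43 (limma adjusted p = 0.243).

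The errors of these tests come from all 4 groups, and the spread of postnatal control enters them. For these genes it widens the errors of the embryonic comparison. The other groups in turn narrow the errors of comparisons with postnatal control, whose p-values are smaller than in fits of the compared groups alone. The median SD of the 43 genes was 0.09 among the embryonic control arrays and 0.10 among the transduced ones, but 1.42 among the postnatal control arrays and 0.15 among the transformed ones. Over all genes these medians were 0.23, 0.25, 0.36 and 0.20. In a fit of the embryonic arrays alone with no fold threshold, an alternative chosen after seeing the data, 11 replication genes were lower and 3 higher, and 12 mitosis genes were lower and 2 higher at a limma adjusted p under 0.05. In that fit 19.8% of all genes were lower and 23.6% higher. Cell type markers also moved with this comparison. Neuron markers summed to 6896 to 7732 in embryonic control and 2116 to 2723 in transduced cells, astrocyte markers to 4708 to 5279 and 1862 to 2616, and glial progenitor markers to 242000 to 270100 and 148700 to 160100. Pdgfra, a receptor of glial progenitors, read 6308 to 9603 in control and 324 to 774 after transduction. Their part in the embryonic results was not tested. Leaving out any 1 of embryonic control arrays 1, 4 or 5 or transduced arrays 1 to 4 left 0 or 1 of the 2 replication calls at 2-fold.

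Among postnatal cells the transformed group was lower than its control in most of the 43 genes. Called lower were 16 of 23 replication genes and 17 of 20 mitosis genes, and none was higher. Over all genes, 6.4% were called lower and 9.56% higher. The median change was -1.28 in replication and -1.36 in mitosis, against 0.00 over all genes. Those not called were Cdc45, Gins2, Pcna, Rfc3, Rfc4, Pola1 and Fen1 of replication and Cdk1, Tpx2 and Foxm1 of mitosis. In such bulk RNA, fewer dividing cells and less of these RNAs per cell cannot be told apart.

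The array values show what lies under these averages. Mki67 read 37266, 34816, 35822, 5929 and 4351 on postnatal control arrays 1 to 5. It read 5403, 3955, 5099, 4123 and 3848 on the transformed arrays. The transformed arrays were all below control arrays 1 to 3, array 4 was above all 5 of them and array 5 lay among them. The fitted change was -1.89 ± 0.44 (limma adjusted p = 0.00119), with an error pooled over all groups. In a fit of the postnatal arrays alone the limma adjusted p of Mki67 was 0.0218. Kif11 read 12351, 12111, 12096, 1792 and 1605 in control and 1606, 1441, 1570, 1340 and 1603 in transformed cells, a change of -1.87 ± 0.43 (limma adjusted p = 0.00121). Here too, array 4 was just above the transformed arrays and array 5 among them.

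Rrm2 read 56529, 65738, 60652, 11429 and 9054 in postnatal control and 7476, 7023, 7524, 7821 and 6766 in transformed cells. All 5 transformed arrays were below every control array, including 4 and 5, and the change was -2.02 ± 0.40 (limma adjusted p = 2.2e-04). Gins1 had 8124, 9223, 8914, 1549 and 1498 in control and 1137, 1160, 1036, 961 and 919 in transformed cells. The groups again did not overlap, and its change of -2.05 ± 0.39 (limma adjusted p = 1.57e-04) was the largest fall among the 43 genes. Cdc6 had 5085, 6906, 6359, 1151 and 1100 in control and 726, 877, 919, 861 and 748 in transformed cells, without overlap, and fell by 1.89 ± 0.38 on the log2 scale (limma adjusted p = 2.73e-04).

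In all, 7 of 23 replication genes and none of 20 mitosis genes had postnatal groups that did not overlap, where the share over all genes was 32.2%. The replication share is close to that of all genes, so nothing is read from it. The 7 were Mcm4, Mcm6, Mcm7, Mcm10, Cdc6, Gins1 and Rrm2. Mcm7 read 55950, 52261, 56298, 20596 and 20184 in control and 15592, 14736, 13896, 13744 and 12985 in transformed cells. Its fall of 1.38 ± 0.23 (limma adjusted p = 2.66e-05) had the smallest p of the 43.

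By role, all 9 licensing genes fell (median -1.38, range -1.89 to -1.03), as did the 3 nucleotide supply genes Rrm1, Rrm2 and Tyms (median -1.07). Tyms was read from a dim probe set, with a mean of 633.4 in postnatal control. Another Tyms probe set, above background on 17 arrays, changed by -0.04 in postnatal and -0.59 in embryonic cells. Of 4 origin firing genes Mcm10 and Gins1 fell (median -1.33 over the 4). The clamp and polymerase genes moved less, with 2 of 7 called, the polymerase subunit Pole (-1.38 ± 0.46) and the primase subunit Prim1 (-1.32 ± 0.35), and a median of -0.72. All 5 checkpoint and kinetochore genes fell (median -1.45), with Cenpe lowest at -1.94 ± 0.46. So did 6 of 7 mitotic kinase and cyclin genes (median -1.30), 4 of 5 kinesin and spindle genes (median -1.23) and 2 of the 3 genes grouped as chromosomes and transcription, Mki67 and Top2a.

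Pcna, the sliding clamp, was among the replication genes that changed least. It read 92691, 86108, 89182, 42984 and 43461 in postnatal control and 47715, 44088, 40249, 39835 and 40322 in transformed cells. The change of -0.66 ± 0.17 had a limma adjusted p of 0.00378 but stayed under 2-fold. Without control arrays 4 and 5 it was -1.08 and was called.

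Without those arrays the postnatal calls covered all 23 replication and all 20 mitosis genes, with medians of -2.14 and -2.50, where 7.26% of all genes were called lower and 9.25% higher. Since those arrays were set apart by low values of these genes, the added calls are no separate support. Each transformed array was then set against control arrays 1 to 3 alone, and all 5 were lower than all 3 in all 43 genes. The share of all genes with that order was not computed. Arrays 1 to 3 are those on which these genes were high, so the order and its gaps are only a description. The gap between the lowest of those controls and the highest transformed array ran from 1.66-fold to 7.21-fold in replication, with Tyms (thymidylate synthase) smallest and Rrm2 largest. It ran from 2.57-fold to 7.47-fold in mitosis, with Foxm1 smallest and Kif11 largest. In a fit of the postnatal arrays alone, which takes its errors from these 2 groups, 7 of the 20 mitosis genes were called. In that fit 5.86% of all genes were called lower and 9.53% higher. The replication genes Mcm3, Cdt1, Gmnn, Rrm1 and Pole lost their call in it. Without control array 1, 2 or 3 the mitosis count was 9 in each case, where 5.96%, 6.06% and 6.15% of all genes were called lower. Replication calls ran from 11 to 20 when single arrays were left out.

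**Figure D2:**
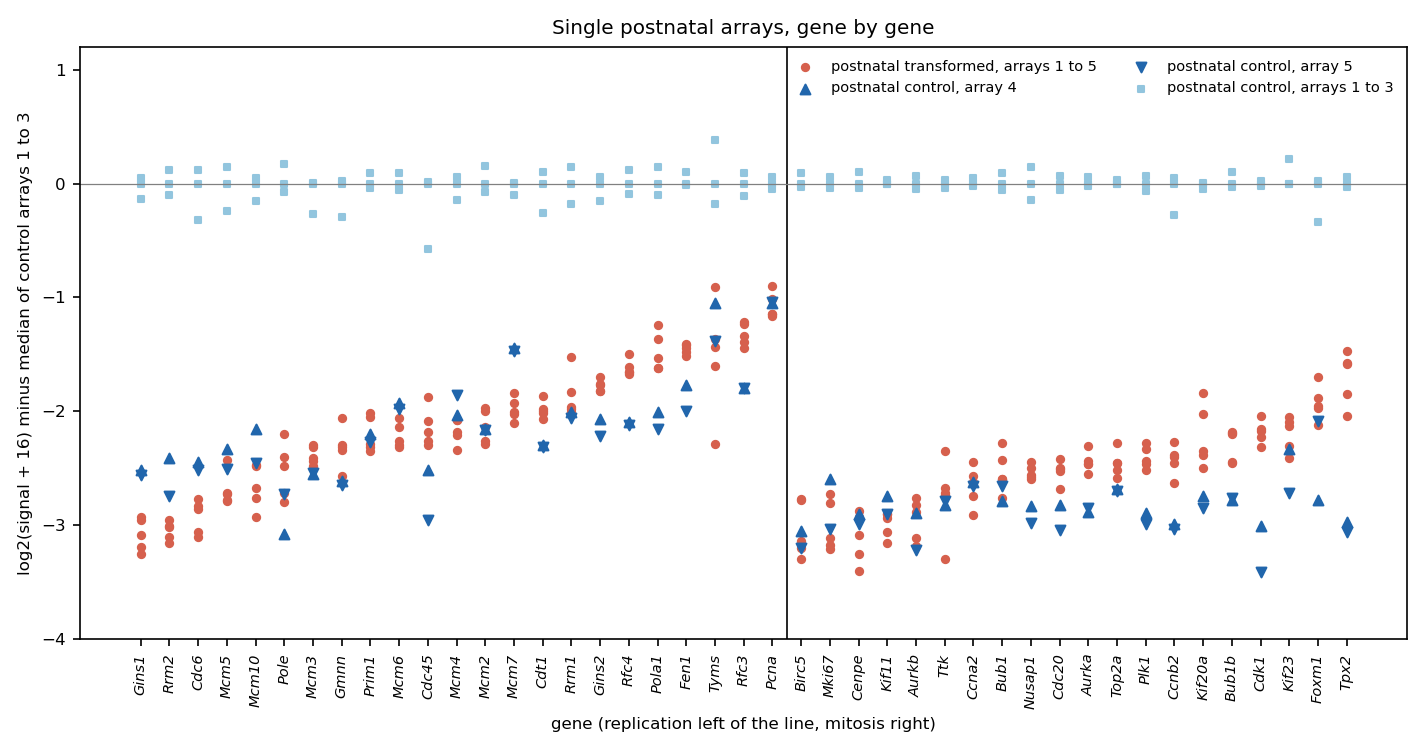
For each gene, log2(signal + 16) on single postnatal arrays is drawn relative to the median of control arrays 1 to 3, with replication genes left and mitosis genes right of the line. All transformed arrays and control arrays 4 and 5 lie below arrays 1 to 3. Against arrays 4 and 5 the transformed points lie above in some genes and below in others.

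Set against control arrays 4 and 5, transformed cells did not share 1 order in all genes. In 9 replication and 10 mitosis genes all 5 transformed arrays were above both arrays. In 7 replication genes and no mitosis gene they were below both, and in the other 17 genes they overlapped. The shares over all genes were not computed, so these counts are only a description. Cdk1, the main mitotic kinase, read 29937, 29486, 30441, 3701 and 2794 in control and 7248, 6370, 6614, 6682 and 5990 in transformed cells. Its transformed arrays were above arrays 4 and 5 and below arrays 1 to 3 without exception. Tpx2, which nucleates spindle microtubules and activates Aurka, read 13419, 12686, 12917, 1633 and 1535 in control and 4322, 4650, 3124, 4306 and 3586 in transformed cells, in the same order. The pooled changes of Cdk1 (-0.90 ± 0.49, limma adjusted p = 0.158) and Tpx2 (-0.50 ± 0.47, limma adjusted p = 0.444) did not pass, and without arrays 4 and 5 they were -2.19 and -1.71 and both were called. The Tpx2 values depend on the probe set. Another, above background on all 20 arrays, changed by -1.35 in postnatal cells (mean 3800 to 1129), and dim ones changed by 0.215 and 0.271.

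The classes can be compared on each array by the mean log2 value of their genes. In embryonic control this mean lay between 13.78 and 13.91 for replication and between 14.00 and 14.12 for mitosis. After transduction it lay between 13.60 and 13.81 and between 13.79 and 13.95. On postnatal control arrays 1 to 5 the replication mean was 13.58, 13.78, 13.73, 11.61 and 11.53. The mitosis mean on the same arrays was 13.76, 13.70, 13.75, 10.93 and 10.84. So arrays 1 to 3 lay close to the embryonic cells, and arrays 4 and 5 were lower in both classes and more so in mitosis. In transformed cells the replication mean was 11.55 to 11.73, the level of arrays 4 and 5, and the mitosis mean was 11.10 to 11.36, above both arrays.

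Mitosis minus replication puts this in 1 value per array. It was 0.18 to 0.24 in embryonic control and 0.06 to 0.33 in embryonic transduced. On postnatal control arrays 1 to 5 it was 0.17, -0.08, 0.02, -0.68 and -0.69. The transformed arrays, at -0.47 to -0.35, lay between these 2 sets of control arrays and overlapped neither. The size of change thus differed between the classes by array. From the median of control arrays 1 to 3, array 4 was lower by a median of 2.16 in replication and 2.82 in mitosis, array 5 by 2.21 and 2.94, and the transformed cells by 2.18 and 2.49. Averaged over groups, the change of mitosis minus that of replication was -0.14 in the postnatal response (-0.43 without arrays 4 and 5), -0.02 in the embryonic response, -0.46 between the control groups (-0.17 without arrays 4 and 5) and -0.59 between the modified groups. No test was made of these differences.

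**Figure D3:**
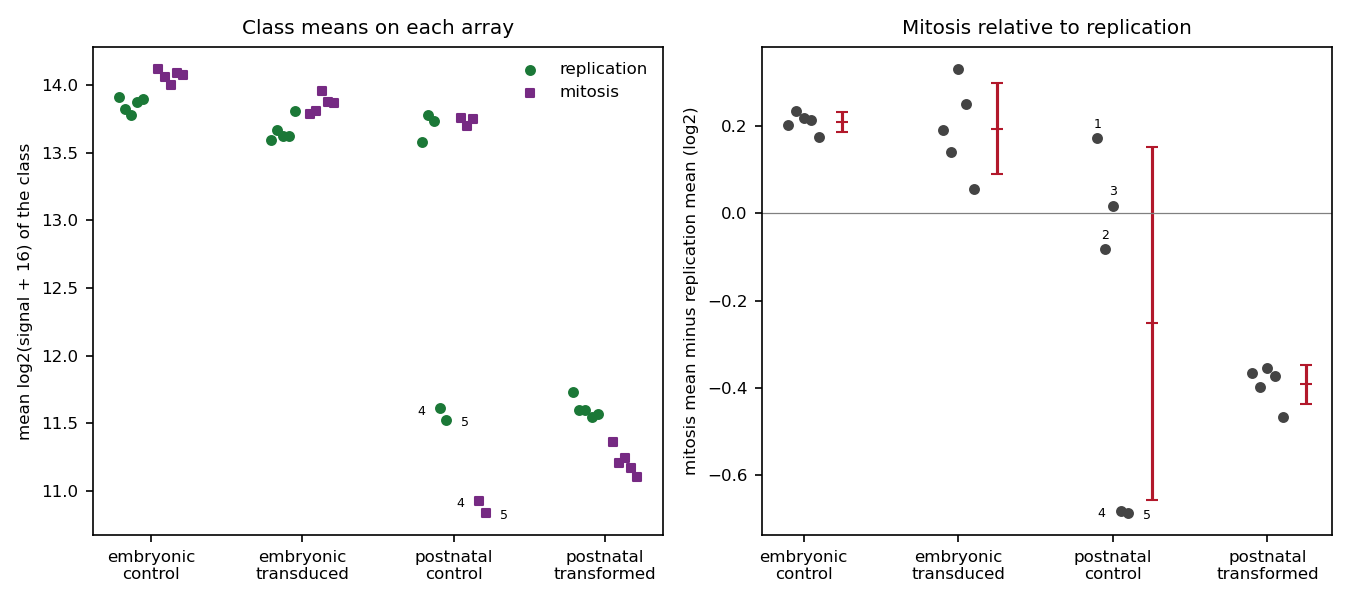
Left, the mean log2(signal + 16) of the 23 replication genes (circles) and 20 mitosis genes (squares) on each array. Right, the mitosis mean minus the replication mean on each array, with bars for the group mean ± SD (n = 5); postnatal control arrays 4 and 5 are lowest at -0.68 and -0.69, and the transformed arrays lie between -0.47 and -0.35.

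Other values moved with arrays 4 and 5. From array 1 to array 5 of postnatal control, the 4 measured mature oligodendrocyte markers (of 5 listed) summed to 2101, 2437, 1785, 7479 and 8518. Their sum was 1040 to 1638 in transformed, 744.9 to 1334 in embryonic control and 798.1 to 1337 in embryonic transduced cells. Most of it was Mbp, a myelin protein, at 1592, 1443, 1546, 6055 and 6971. Of the other defining markers, on arrays 4 and 5 Mog read 10.5 and 56.8 and Mobp 43.6 and 40.0, below background, while Mag read 1370 and 1451. Nes, an intermediate filament of progenitors, read 4095, 4640, 4829, 1705 and 648. The other glial progenitor markers were mixed. Pdgfra, Cspg4 and Olig2 were also lower on arrays 4 and 5 than on any of arrays 1 to 3. Sox2 was higher, as was Sox10 (19080, 10720, 20090, 37460 and 39460), and Olig1 lay within their range. All 7 summed to 330100, 289600, 343200, 306500 and 315600 on postnatal control arrays 1 to 5. Astrocyte markers (5 of 5 measured) summed to 42170, 16310, 5836, 29780 and 32090 on the same arrays and to 30020 to 33120 in transformed cells. In transformed cells most of that sum was S100b, at 25130 to 28150, against 1591 to 23080 in control. Aldh1l1, an astrocyte enzyme, was lower there, at 203 to 236 against 975 to 4595, and so was the water channel Aqp4, at 45.3 to 235 against 325 to 5181. Neuron markers summed to 4751 to 7533 in control and 10420 to 11340 in transformed cells. Syt1 and Tubb3 were the higher ones there, whereas Rbfox3 (NeuN) read 1112 to 1660 in control and 58.3 to 291 in transformed cells, and Snap25 722 to 1799 and 327 to 528. Microglia markers summed to 838.6 to 1227 in postnatal control and 830.9 to 1131 in transformed cells, and 1 of 6 was above background on all arrays of each group. The log2 ratio of 3′ to 5′ Gapdh probe sets, a sign of RNA quality, was -0.51 to -0.41 in postnatal control and -0.59 to -0.48 in transformed cells, and -0.43 to -0.32 and -0.35 to -0.26 in embryonic control and transduced cells. The part of these in the results was not tested.

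The change in postnatal cells minus that in embryonic cells was tested as an interaction term. It was called lower for 9 of 23 replication and 4 of 20 mitosis genes and higher for none, where 9.75% of all genes were called lower and 9.36% higher. The median was -1.12 in replication and -1.19 in mitosis. Of the 9 replication genes 7 belong to licensing, Mcm3, Mcm4, Mcm5, Mcm6, Mcm7, Cdc6 and Cdt1, with Mcm10 and Tyms besides. Mcm10 had the largest difference, -1.81 ± 0.51 (limma adjusted p = 0.00657), from 0.09 in embryonic and -1.72 in postnatal cells. Cdt1 differed by -1.65 ± 0.49 (limma adjusted p = 0.00990), being 0.62 in embryonic and -1.03 in postnatal cells.

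For mitosis the 4 were Mki67 (-1.71 ± 0.62, limma adjusted p = 0.0328), Aurkb (-1.71 ± 0.67, limma adjusted p = 0.0479), Bub1 (-1.55 ± 0.60, limma adjusted p = 0.0436) and Kif23 (-1.49 ± 0.57, limma adjusted p = 0.0433). Rrm2 and Gins1 fell in both cell types, and their differences of -0.91 ± 0.56 and -0.97 ± 0.55 did not pass. Fen1 changed by -0.83 in embryonic and -0.72 in postnatal cells, a difference of 0.11 ± 0.42. Without postnatal control arrays 4 and 5 that difference was -0.66, under 2-fold and of the opposite sign, and the other Fen1 probe set changed by -1.33 in postnatal cells. These counts depended on the postnatal control arrays. Without arrays 4 and 5 the calls were 20 of 23 and 20 of 20, without array 4 alone 17 and 14, and without array 5 alone 17 and 17. Of all genes, 10.9% were called lower without both arrays and 10.2% without either one alone. The mitosis count fell to between 0 and 2 when any other single array was left out.

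**Figure D4:**
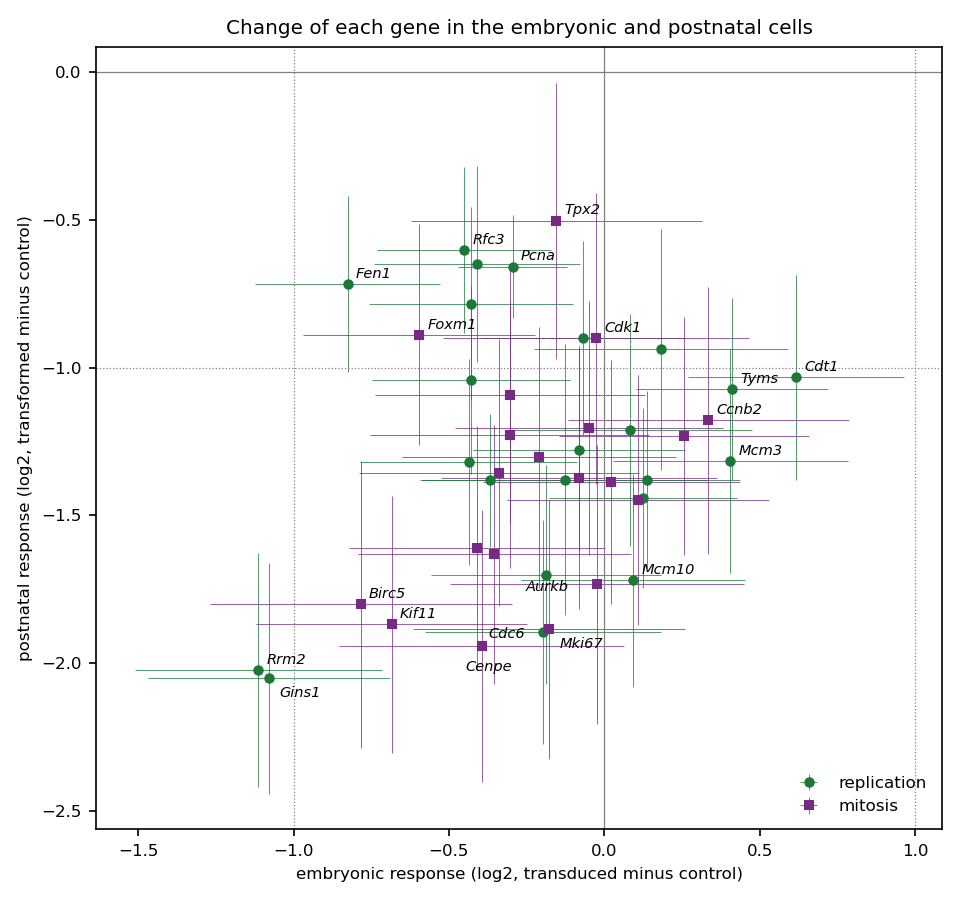
Each point is 1 of the 43 genes, with its embryonic change (transduced minus control) on the x axis and its postnatal change (transformed minus control) on the y axis, both log2, and bars of 1 standard error of the limma fit. All points lie below 0 on the y axis, whereas on the x axis they lie on both sides of 0; Rrm2 and Gins1 are the only points beyond the dotted 2-fold lines on both axes.

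Between the control groups, postnatal cells were lower in 13 of 23 replication and 18 of 20 mitosis genes and higher in none, where 5.72% of all genes were called lower and 4.86% higher. The medians were -1.03 and -1.49. Groups did not overlap for 6 replication and 16 mitosis genes, against 22.2% of all genes. Aurkb, a kinase of the chromosomal passenger complex, read 12622, 11161, 10834, 11954 and 11695 in embryonic control and 7885, 8135, 8498, 1080 and 860 in postnatal control. Even arrays 1 to 3 were below all embryonic arrays, and its change of -1.74 was -0.51 without arrays 4 and 5. Without them 0 genes of either class were called at 2-fold by limma, where 3.67% of all genes were called lower, and the medians were -0.15 and -0.35. At a limma adjusted p under 0.05 with no fold threshold, 5 replication and 16 mitosis genes were lower, and at an unadjusted p 10 and 16 were. The shares of all genes in that fit were not computed at these thresholds, so the counts are only a description. With all 20 arrays and no fold threshold, 15.6% of all genes were called lower. Without array 4 alone the counts of calls at 2-fold were 2 and 11, and without array 5 alone also 2 and 11. Of all genes, 4.63% and 4.6% were called lower in these fits. Leaving out embryonic control array 1 gave 8 replication calls, where 5.56% of all genes were called lower. In a fit of these groups alone 2 and 1 genes were called, where 4.6% of all genes were called lower, and nothing is read from these counts.

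Between the modified groups the means did not use those arrays. Postnatal transformed cells were lower than embryonic transduced cells in 20 of 23 replication and all 20 mitosis genes, where 13.7% of all genes were called lower and 11.7% higher. In all 43 genes the groups did not overlap, against 46.6% of all genes. The medians were -2.27 for replication and -2.68 for mitosis, against -0.14 over all genes. Aurkb had the largest change, with 10757, 10139, 12408, 12609 and 11468 in embryonic transduced and 1090, 924, 1183, 883 and 1139 in postnatal transformed cells, a change of -3.44 ± 0.47 (limma adjusted p = 1.7e-06). The 3 replication genes under 2-fold were Pcna (-0.94), Rfc3 (-0.86), a subunit of the clamp loader, and Fen1 (-0.79), all of the clamp and polymerase group, with limma adjusted p of 8.46e-05, 0.0129 and 0.0307. For Fen1 this depends on the probe set. Its other one averaged 7521 in embryonic transduced and 2383 in postnatal transformed cells, a wider gap. The other Rfc3 probe set averaged 5842 and 3218. Licensing genes had a median of -2.53, clamp and polymerase genes -1.35, kinesins -2.56, and checkpoint and kinetochore genes -2.79. This contrast shares its arrays with both responses, so its values stand beside them and add no separate evidence.

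Further genes of the same pathways were taken from 3 lists by known role. Of 48 other replication genes 46 were measured, and in the postnatal response 18 fell, none rose and the median was -0.81. Without control arrays 4 and 5, 31 fell and none rose. Over all genes 6.4% were called lower and 9.56% higher, and 7.26% and 9.25% without those arrays. Those arrays were set apart by low values of the 43 genes of the same pathways. The calls added in these lists by leaving them out are therefore no separate support. Wdhd1, a replisome adaptor, fell by 2.24 ± 0.27 (mean signal from 3986 to 725.2, limma adjusted p = 3.44e-07), and Cdc7, the kinase that fires origins, fell by 1.29 ± 0.21 (4940 to 1855). Orc5 and Orc4, subunits of the origin recognition complex, changed by -0.54 ± 0.08 and 0.48 ± 0.07, both under 2-fold. In embryonic cells, where 5.74% of all genes were called lower and 8.61% higher, Orc4 was the single call among the 46, from 7173 to 15620 (1.12 ± 0.07, limma adjusted p = 5.99e-11).

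Of 83 other mitosis genes 81 were measured, and 41 fell and 1 rose in the postnatal response (median -1.08). Without control arrays 4 and 5, 74 fell and 1 rose. Over all genes 6.4% were called lower and 9.56% higher, and 7.26% and 9.25% without those arrays. The 1 mitosis gene that rose was Pttg1, which encodes securin, the inhibitor of sister chromatid separation. Its mean signal was 9822 in postnatal control and 26800 in transformed cells, a rise of 1.53 ± 0.16 (limma adjusted p = 7.91e-08). Without arrays 4 and 5 the rise was 1.22 ± 0.13, and in embryonic cells it changed by 0.76 ± 0.16, from 23770 to 40240, under 2-fold. Changes were -1.55 ± 0.19 for Lmnb1, a nuclear lamin, -1.79 ± 0.35 for Ncapd2, a condensin subunit, and -1.10 ± 0.17 for the phosphatase Cdc25b, all called. In the embryonic response 3 of the 81 fell and 2 rose, smaller shares than the 5.74% and 8.61% of all genes. The 3 were Ndc80 (-1.16 ± 0.46) and Cenpm (-1.10 ± 0.42) of the kinetochore, and Lmnb1 (-1.10 ± 0.19). Psrc1, a spindle protein, rose from 9812 to 23110 (1.23 ± 0.41) in embryonic cells and fell from 10910 to 2087 (-1.90 ± 0.41) in postnatal cells. Kif14, a mitotic motor, averaged 18.5 in embryonic control, not above background on any array, and 279 after transduction, above background on 4 of 5 arrays.

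The factors that transcribe these genes were listed apart, 16 of E2F and MuvB, all measured. In the postnatal response 7 fell and none rose (median -0.72), and 9 fell and none rose without control arrays 4 and 5. Over all genes 6.4% were called lower and 9.56% higher, and 7.26% and 9.25% without those arrays. In the embryonic response 0 were called, with 5 lower and 0 higher at an unadjusted limma p under 0.05. At that p, 3703 of 18193 genes were lower and 4495 higher. Tfdp1, the dimer partner of E2F factors, read 23720 in postnatal control and 10310 in transformed cells on average, a change of -1.195 ± 0.071 (limma adjusted p = 8.02e-12). E2f8, a repressor of the family, fell by 2.59 ± 0.22 (2784 to 424.2), and E2f5 fell by 1.12 ± 0.13. E2f3, an activator, changed by -0.62 ± 0.07, under 2-fold. Foxm1, which is 1 of the 43 genes, read 2904, 3738, 3677, 522 and 852 on postnatal control arrays and 927, 986, 831, 938 and 1121 on transformed arrays. Its pooled change of -0.89 ± 0.37 did not pass (limma adjusted p = 0.0619). Without control arrays 4 and 5, which were set apart by low values of genes that include Foxm1, it fell by 1.82.

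Where a gene had more than 1 probe set, the probe sets were compared. This was so for 33 of the 43 genes, which had 98 probe sets in all over the 43. Of 35 further probe sets above background on all 20 arrays, 34 had the sign of the one used in the postnatal response and 32 in the embryonic response.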

How the data were processed

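Labelled total RNA of 20 mouse cell line samples had been hybridised to 20 single-colour arrays. The deposited values were linear intensities for 45101 probe sets per array. The software and normalization behind these deposited intensities were not given in the sources used here. Their mean after trimming 2% at each end was nearly equal on all arrays, so they were used unscaled. Symbols came from GEO's platform annotation, with 34945 probe sets of 1 symbol and 932 of several, which were not named. For each of 18193 genes the probe set brightest on average was kept. Background was the 95th percentile of 27 bacterial control probe sets on each array, between 107 and 221. The number of arrays limits the precision.

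The scale was log2(signal + 16), on which changes of dim genes are understated. A model of the 4 groups in limma 3.58.1, using eBayes with a trend on intensity, took in all 20 arrays (R 4.3.3; tables were read by data.table, version 1.17.8). The tests were two-sided, and Benjamini-Hochberg adjustment ran over all 18193 genes. Python 3.11.15 with pandas 2.3.3 served for promoters and figures. The model was tested on simulated data first. The members, the lists and the comparisons were chosen with earlier results of these data known. Every member could be named. From the other lists, the 4 genes with the smallest p in the postnatal response were named, plus any called in the embryonic response or opposite to most of their list.

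Alternatives were other scalings, probe set rules, offsets, thresholds and fits, leaving out arrays, and a replicate block.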

Additional observations from a re-analysis of the deposited data

Results flagged for a closer look

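Single arrays stood far from the other 4 of their group in 8 of 184 groups of values checked, where chance gives about 1 in 20. The values are log2(signal + 16). In embryonic control, Mcm2 read 13.9 and Kif20a 13 on array 3, and Mcm5 read 15.19 and Kif11 13.65 on array 2, all low. In embryonic transduced, Mcm2 read 14.20 and Pole 12.79 on array 5, and Kif20a read 13.07 on array 3, all high. In postnatal transformed, Mcm5 read 12.90 on array 1, high. None of these was in postnatal control, where arrays 4 and 5 lay apart together.

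In 13 genes the postnatal change differed from the embryonic change in the limma interaction test. On the log2 scale the differences were -1.81 for Mcm10, -1.72 for Mcm3, -1.69 for Cdc6, -1.65 for Cdt1, -1.57 for Mcm6, -1.52 for Mcm4, -1.51 for Mcm5, -1.48 for Tyms and -1.01 for Mcm7 among replication genes. Among mitosis genes they were -1.71 for Mki67, -1.71 for Aurkb, -1.55 for Bub1 and -1.49 for Kif23. All carry the spread of postnatal control arrays 4 and 5 in their errors, and that of Tyms also depends on the probe set.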

How the results depend on the processing

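Called members kept their sign under every alternative tried. They were called in every setting in 0 of 2 cases for the embryonic response, 16 of 33 for the postnatal response, 5 of 13 for the difference of responses, 0 of 31 for the control groups and 38 of 40 for the modified groups. The causes of the changes below were not tested beyond what each setting leaves out.

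Embryonic replication calls (2) became 1 with quantile normalization, 1 with the mean of all probe sets and 0 with no intensity trend, and 0 to 2 without single arrays. Called lower were 6.99% of all genes with quantile normalization, 4.91% with the mean of all probe sets and 5.68% with no intensity trend. With only the groups compared and no fold threshold, chosen after seeing the data, they became 11 lower and 3 higher, and mitosis became 12 lower and 2 higher, where 19.8% of all genes were lower and 23.6% higher. Postnatal mitosis calls (17) became 7 with only the groups compared, with or without the fold threshold, and 9 to 19 without single arrays. With only the postnatal groups compared, 5.86% of all genes were called lower with the threshold and 19.8% without it. For the difference of responses, replication calls (9) became 18 with array weights, 20 without postnatal control arrays 4 and 5, and 7 to 17 without single arrays. Mitosis calls (4) became 1 with 75th percentile centring, 18 with array weights, 0 with no intensity trend, 20 without arrays 4 and 5, and 0 to 17 without single arrays. Of all genes, the difference was called lower in 8.28% with 75th percentile centring and 10.5% with array weights. It was so in 9.63% with no intensity trend and 10.9% without arrays 4 and 5. For the control groups, replication calls (13) became 2 with only the groups compared, with or without the fold threshold, 1 with array weights, 21 with no fold threshold in the full model, 20 at 1.5-fold, 0 without arrays 4 and 5, and 2 to 19 without single arrays. Mitosis calls there (18) became 1 with only the groups compared, with or without the fold threshold, 7 with array weights, 0 without arrays 4 and 5, and 11 to 20 without single arrays. With only the control groups compared, 4.6% of all genes were called lower with the threshold and 12% without it. In the full model the share was 15.6% with no fold threshold and 8.83% at 1.5-fold. It was 4.1% with array weights and 3.67% without arrays 4 and 5. With the replicate block, mitosis calls of the difference became 7, and those of the control groups, fitted with the block in these groups alone, became 2 in replication and 2 in mitosis. Of all genes, 9.67% were called lower for the difference and 4.27% for the control groups with the block. Same-numbered arrays did not deviate together (r from -0.053 to 0.032 in embryonic and -0.009 to 0.02 in postnatal cells), and 1 of 5 arrays in each correlated best with its own number. These values cannot exclude a shared origin of same-numbered samples, since other spread between arrays can hide it.

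The embryonic median of mitosis was -0.14 with quantile normalization and -0.29 with 75th percentile centring, and that of replication was -0.28 with this centring and -0.11 with the mean of all probe sets. The mean of all probe sets gave -2.11 and -2.42 for replication and mitosis between the modified groups, and -0.42 for mitosis minus replication. Without arrays 4 and 5 the medians of replication and mitosis were -2.14 and -2.50 in the postnatal response, -2 and -2.3 for the difference and -0.15 and -0.35 between controls, and mitosis minus replication was -0.43, -0.41 and -0.17. Of all values, 327 stayed within 1.5 times the count, or within the spread, and 44 did not under these settings. With single arrays left out 383 did and 37 did not.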

Other observations

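Outside all the lists, the genes whose log2 values ran closest to the mean of the mitosis genes over the 20 arrays were Knstrn (Pearson r = 0.995), which encodes a spindle and kinetochore protein, Stil (0.993), needed for centriole duplication, and Pclaf (0.991), a Pcna-binding factor. Next came Exo1 (0.990), a DNA repair exonuclease, the phosphatase Cdkn3 (0.990) and Arhgap11a (0.990). These values describe 20 arrays that share the split between high and low arrays, and they carry no test.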
